A study of Homo sapiens with 12 samples.

Results

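To ask how lipid synthesis genes behaved when melanoma cells were exposed to a RAF inhibitor, 34 genes of cholesterol and fatty acid synthesis, its control, and sterol efflux were followed by name among the 23273 genes listed for 2 melanoma cell lines, COLO858 and MMACSF. Each line was cultured with DMSO as the vehicle or with 0.2 μM vemurafenib, an inhibitor of mutant BRAF kinase, for 24 or 48 h, and mRNA was sequenced from 2 replicate plates per line and condition, 12 libraries in all. How long the DMSO plates were kept is not given by their labels, and 1 DMSO pair per line served as the control for both times. The genes, listed by role, were 17 enzymes of sterol synthesis, 6 genes that control the SREBP transcription factors or move sterol within the cell, 7 genes of fatty acid synthesis and desaturation, and 4 genes of sterol efflux and of the response to the sterol-sensing receptor LXR.

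Cells make cholesterol from acetyl-CoA through mevalonate, farnesyl pyrophosphate, squalene, and lanosterol, and they make fatty acids from the same acetyl-CoA through malonyl-CoA. Both routes are switched on by the SREBP factors, which lie in the endoplasmic reticulum as precursors until SCAP escorts them to the Golgi for cleavage. When sterol is plentiful, the INSIG proteins hold SCAP back, and oxysterols activate LXR, which turns on genes that export sterol. BRAF-mutant melanomas grow on MAPK signaling, and dividing cells need both lipids for new membranes.

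Levels are FPKM (fragments per kilobase of a transcript, relative to all fragments mapped), a unit that corrects for transcript length. A gene counted as measured in a line if its mean reached 1 FPKM in any group, which held for 34 of the 34 genes in COLO858 and for 32 in MMACSF, where the efflux pumps ABCA1 and ABCG1 stayed under that level. Changes are differences of log2(FPKM + 1) with their standard error (SE), which understate the change of genes with low values. A gene was said to have risen or fallen where limma's moderated test, adjusted by Benjamini-Hochberg over all genes measured in that line, gave p under 0.01. Adjusted p-values below are of this kind, except that those of differences between the lines were adjusted over the 13595 genes measured in either line. With 2 plates per group, adjusted p-values measure only the spread between plates, which may be technical. The 2 lines came in separate tables whose common scaling is not stated, so their levels were not compared; the lines also differed in growth medium and seeding density. In bulk RNA, fewer cells of a type and less RNA per cell cannot be told apart.

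The summed FPKM, which is not a depth, was 670310 to 1013038 per library in COLO858 and 726083 to 856083 in MMACSF. Genes of small RNAs made up 20.8 to 50.6% of it in COLO858 and 22.3 to 39.7% in MMACSF, and their share was higher in replicate 2 than in replicate 1 of every group. Between 11679 and 11972 genes reached 1 FPKM per library. Of 9 melanocyte lineage markers, 9 reached 1 FPKM in all 6 MMACSF libraries and 7 in all 6 COLO858 libraries, where MLANA was at 0.299 to 0.725 FPKM and TYR at 0.282 to 1.21. The 5 blood cell and 4 adipocyte markers were under 1 FPKM in every library. Of 4 epithelial markers, CDH1 alone reached 1 FPKM in all MMACSF libraries (20.8 to 39.2), and of 5 fibroblast markers 1 did so in COLO858 and 3 in MMACSF. Whether these markers bear on the results below was not tested.

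The promoters of 5 genes that fell at 48 h in both lines are shown first, because the SREBP factors act at promoters next to the factor NF-Y. Each sequence is the 250 bases before the annotated transcription start, 5′ to 3′ on the strand of the gene, from RefSeq for GRCh38.p14. Capitals mark TCACNCCAC, 1 form of the sterol regulatory element, and the NF-Y box CCAAT, each on either strand, so that ATTGG is the box on the other strand. INSIG1 holds SCAP in the endoplasmic reticulum (chr7:155297628-155297877, plus strand), SREBF2 encodes the SREBP factor that favors sterol genes (chr22:41832855-41833104, plus strand), FDPS makes farnesyl pyrophosphate (chr1:155308616-155308865, plus strand), EBP is the sterol isomerase (chrX:48521558-48521807, plus strand), and DHCR7 makes cholesterol from 7-dehydrocholesterol (chr11:71448394-71448643, minus strand).
INSIG1: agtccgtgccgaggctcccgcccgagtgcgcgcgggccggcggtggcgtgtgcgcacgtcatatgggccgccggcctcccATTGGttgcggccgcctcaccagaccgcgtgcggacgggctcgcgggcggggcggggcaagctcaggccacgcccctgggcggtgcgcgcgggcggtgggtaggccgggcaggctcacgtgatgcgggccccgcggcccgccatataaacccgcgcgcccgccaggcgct
SREBF2: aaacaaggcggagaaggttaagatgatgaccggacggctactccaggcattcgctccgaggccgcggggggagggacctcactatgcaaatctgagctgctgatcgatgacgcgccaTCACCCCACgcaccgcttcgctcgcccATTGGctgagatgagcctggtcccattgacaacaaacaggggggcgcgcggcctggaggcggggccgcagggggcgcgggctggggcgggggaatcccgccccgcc
FDPS: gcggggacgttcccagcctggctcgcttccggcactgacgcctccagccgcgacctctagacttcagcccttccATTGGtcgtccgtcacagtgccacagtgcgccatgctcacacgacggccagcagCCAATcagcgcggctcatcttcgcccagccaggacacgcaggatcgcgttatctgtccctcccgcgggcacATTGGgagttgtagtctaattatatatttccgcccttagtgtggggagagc
EBP: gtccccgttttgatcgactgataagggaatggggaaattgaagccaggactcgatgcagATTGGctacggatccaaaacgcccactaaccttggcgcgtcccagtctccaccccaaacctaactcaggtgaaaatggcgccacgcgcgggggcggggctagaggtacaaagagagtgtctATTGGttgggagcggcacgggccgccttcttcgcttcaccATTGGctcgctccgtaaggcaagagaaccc
DHCR7: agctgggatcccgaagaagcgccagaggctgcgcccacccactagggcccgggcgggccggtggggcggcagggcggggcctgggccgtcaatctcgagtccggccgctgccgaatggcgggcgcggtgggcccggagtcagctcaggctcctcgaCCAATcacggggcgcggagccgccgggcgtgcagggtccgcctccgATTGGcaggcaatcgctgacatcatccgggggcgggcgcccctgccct

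The table of promoters held 29 of the 34 genes and lacked ACAT2, FDFT1, SQLE, FASN, and ABCG1. A CCAAT box lay in 17 of these 29 windows and in 32% of all 35116 windows of the same length. Each of the windows shown above holds a box, so they do not represent all 29. By role, the box was found in 10 of 14 sterol synthesis promoters, 3 of 6 promoters of SREBP control and sterol transport, 2 of 6 of fatty acid synthesis, and 2 of 3 of efflux and LXR targets. FDPS and EBP had 3 boxes each, and DHCR7 had 2. The element TCACNCCAC was present in 0.883% of all windows and in 1 of the 29, that of SREBF2, 133 to 125 bases before the start. The E-box CACGTG, which SREBP factors can also bind, was present in 6.34% of all windows and in 3 of the 29. These are matches of letters, and they do not show binding.

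Between 5 and 9 of the 17 sterol synthesis genes fell in each of the 4 comparisons of vemurafenib with DMSO. Of the sterol enzymes that passed the test, the fall was largest for ACAT2, the first enzyme, in COLO858 at 24 h, and for DHCR7, the last, in the other 3 comparisons with DMSO. In COLO858, 7 of the 34 genes fell and 1 rose at 24 h, where 9.82% of 12696 genes passed the test (5.71% lower and 4.11% higher). At 48 h, 10 of the 34 fell, against 9.47% of all genes (4.73% lower). In MMACSF, 9 of the 32 measured genes fell at 24 h, against 5.83% of 12599 genes (3.6% lower), and 14 fell at 48 h, against 8.83% (5.41% lower). The median log2 change of the genes was −0.57 (24 h) and −0.96 (48 h) in COLO858, where that of all genes measured was 0.06 and −0.01. For MMACSF the medians were −0.88 and −0.98, where that of all genes was 0.07 and 0.06. The counts rest on every plate. Leaving out any 1 of the 6 libraries of a line left fewer of these genes called in each of the 4 comparisons. Fewer of all genes were called then as well, so the loss is not particular to the lipid genes.

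**Figure D1:**
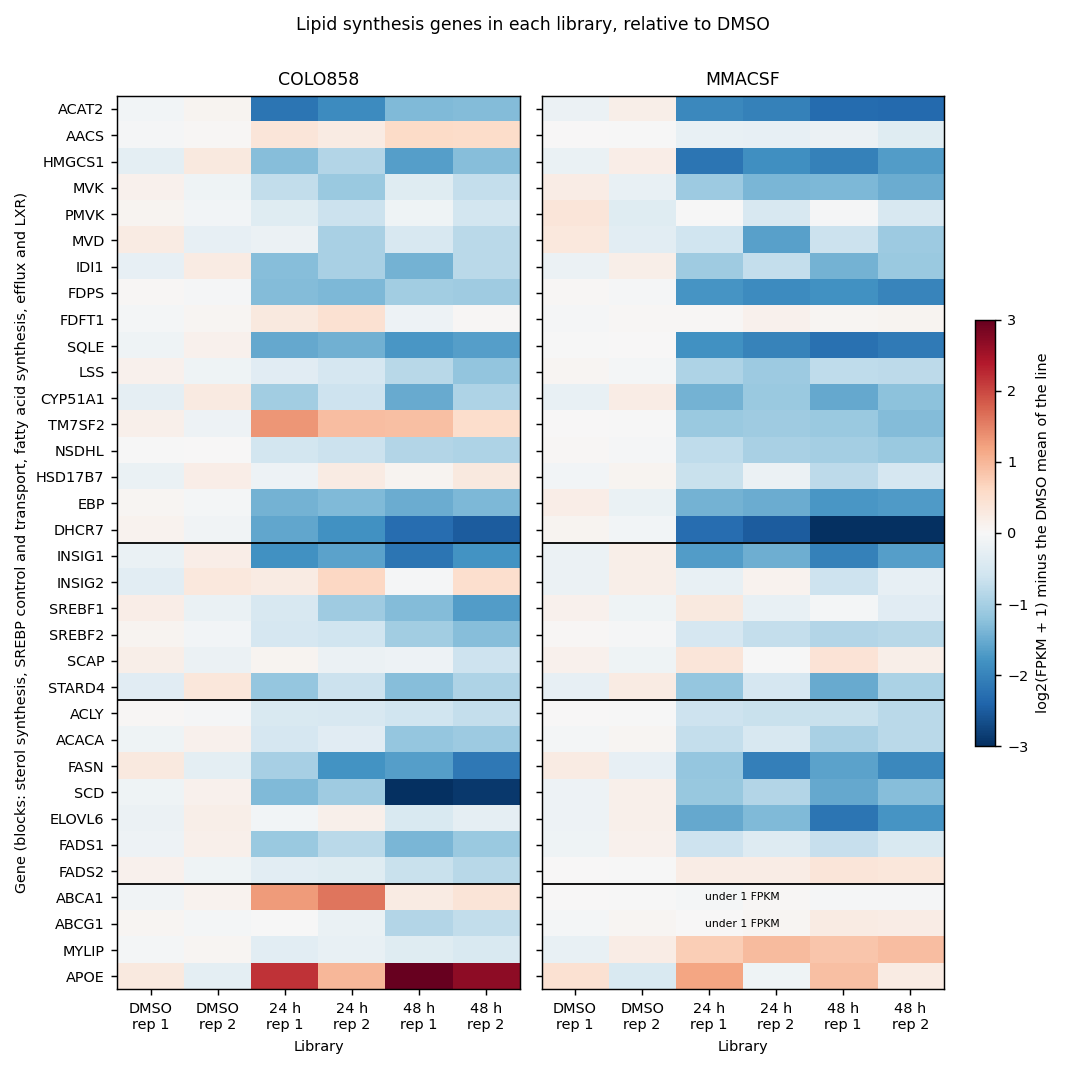
Heat map of the lipid genes by role (rows) in each library (columns) of COLO858 and MMACSF; color is log2(FPKM + 1) minus the mean of the DMSO pair of that line, and the scale ends at −3 and 3. Most sterol and fatty acid genes are below DMSO in the 4 drug-treated libraries of each line, while APOE in COLO858 and MYLIP in MMACSF are above it.

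In all, 6 of the genes fell in both lines at 24 h, namely ACAT2, FDPS, SQLE, EBP, DHCR7, and INSIG1, which are 6 of the 7 that fell in COLO858 and 6 of the 9 in MMACSF. At 48 h, 9 genes fell in both lines, the same 6 with NSDHL, SREBF2, and SCD, which are 9 of the 10 in COLO858 and 9 of the 14 in MMACSF. Of the 11700 genes measured in both lines, 2.42% fell in both at 24 h and 1.38% at 48 h. Over the 4 comparisons with DMSO, 17 of the 34 genes passed the test at least once and 17 did not. The share of all genes that passed at least once was not counted, so this count cannot be set against it. Whether a gene passed also depended on whether the replicate number entered the fit, so a change that did not pass is not shown to be absent.

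The 17 sterol synthesis genes had a median log2 change in COLO858 of −0.83 after 24 h and −1.0 after 48 h, and 5 and then 6 of them fell. In MMACSF the median was −1.11 and −1.27, and 8 and then 9 fell. Both drug-treated libraries were below both DMSO libraries for 12 (24 h) and 13 (48 h) of the 17 genes of COLO858, where 29% and 31.4% of all genes had that order. In MMACSF this held for 15 of the 17 at each time, against 25.8% and 28.8% of all genes. The summed FPKM of the 17 genes in COLO858 was 687 and 720.3 under DMSO, 476.8 and 488.9 at 24 h, and 410.9 and 425.6 at 48 h. MMACSF plates summed to 888 and 904.7 under DMSO, 448.2 and 452.4 at 24 h, and 423.6 and 426.4 at 48 h. The sum was thus lower in every treated plate than in either DMSO plate of its line.

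**Figure D2:**
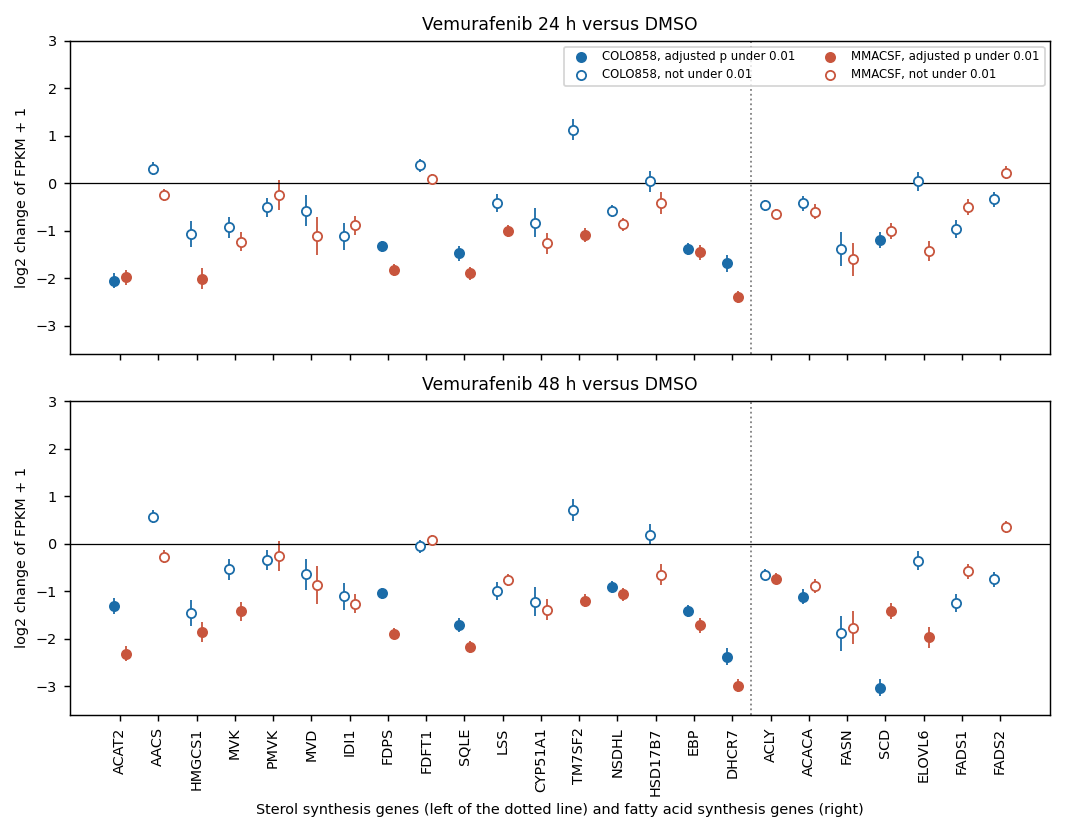
Log2 change of FPKM + 1 (y axis) at 24 h (top) and 48 h (bottom) for each gene in pathway order (x axis), with COLO858 in blue and MMACSF in red; bars are 1 SE and filled points have an adjusted p under 0.01. DHCR7 at 48 h lies at −2.38 in COLO858 and −2.99 in MMACSF, FDFT1 at 48 h lies near 0 in both, and the TM7SF2 points of the 2 lines lie on opposite sides of 0.

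At the entry to the pathway, ACAT2, which joins 2 molecules of acetyl-CoA, was at 21.0 and 24.1 FPKM under DMSO in COLO858, 4.11 and 5.32 at 24 h, and 8.39 and 8.56 at 48 h. It fell by 2.05 on the log2 scale at 24 h (SE 0.17, adjusted p = 0.00191), a 4.79-fold lower mean, and by 1.31 at 48 h (adjusted p = 0.00643). MMACSF plates had 50.1 and 64.3 FPKM under DMSO, 14.1 and 13.1 at 24 h, and 10.6 and 10.5 at 48 h, and there ACAT2 fell by 1.98 and by 2.32 (adjusted p = 0.00226 and 0.00107). The gene shares 615 bases with TCP1 and 485 bases with SOD2, which lie on the other strand. AACS, which activates acetoacetate for lipid synthesis, did not pass the test in either line; it was at 6.26 and 6.75 FPKM under DMSO and 10.2 and 10.0 at 48 h in COLO858, and at 14.9 and 14.5 and then 12.8 and 11.3 in MMACSF. The 2 lines thus had log2 changes of opposite sign, 0.57 and −0.27 at 48 h, and their difference of 0.84 did pass the test (SE 0.15, adjusted p = 0.00738).

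HMGCS1 makes the HMG-CoA from which mevalonate is derived. In MMACSF it was at 62.0 and 82.4 FPKM under DMSO, 15.0 and 19.2 at 24 h, and 16.7 and 21.5 at 48 h, and it fell by 2.01 and by 1.86 (adjusted p = 0.00513 and 0.00502). In COLO858 it was at 27.6 and 42.4 FPKM under DMSO, 13.6 and 18.3 at 24 h, and 10.3 and 13.4 at 48 h. The groups did not overlap there either, but the changes of −1.07 and −1.47 did not pass (adjusted p = 0.043 and 0.018). The kinase MVK, the next enzyme measured, fell in MMACSF at 48 h by 1.42 (adjusted p = 0.00816), from 26.2 and 19.2 FPKM to 8.21 and 7.31, and its other 3 changes, −0.93 and −0.54 in COLO858 and −1.23 at 24 h in MMACSF, did not pass. PMVK and MVD, which phosphorylate and then decarboxylate the product, and the isomerase IDI1 did not pass in any comparison. Their log2 changes in the 4 comparisons with DMSO were between −0.51 and −0.24 for PMVK, −1.11 and −0.58 for MVD, and −1.27 and −0.89 for IDI1.

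FDPS, which makes farnesyl pyrophosphate for sterols and for protein prenylation (chr1:155278539-155290457, GRCh37), had little spread between plates. In COLO858 it was at 149.4 and 144.4 FPKM under DMSO, 59.2 and 56.7 at 24 h, and 71.3 and 70.1 at 48 h. The MMACSF values were 156.8 and 148.4 FPKM, then 44.2 and 40.4, and then 42.7 and 38.1. It fell by 1.33 and 1.05 in COLO858 (adjusted p = 0.00209 and 0.00407) and by 1.83 and 1.89 in MMACSF (adjusted p = 0.00161 and 0.000956). The fall was smaller in COLO858 at 48 h, by 0.85 on the log2 scale (SE 0.14, adjusted p = 0.00413).

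The first enzymes committed to sterols differed from each other. FDFT1, which makes squalene, was at 140.9 and 155.2 FPKM under DMSO and 133.9 and 151.3 at 48 h in COLO858, and at 176.3 and 185.9 and then 187.5 and 192.4 in MMACSF. Its 48 h changes were −0.05 (95% interval from −0.39 to 0.28) and 0.07 (from −0.19 to 0.33), so changes of 2-fold lie outside both intervals. At 24 h it was at 182.4 and 203.4 FPKM in COLO858, above both DMSO plates, with a change of 0.38 that did not pass (95% interval from 0.04 to 0.72, adjusted p = 0.0954), and its change in MMACSF was 0.08. SQLE, the epoxidase that acts on squalene, fell in all 4 comparisons with DMSO, from 24.8 and 29.5 FPKM to 7.30 and 7.88 at 48 h in COLO858 and from 41.5 and 42.0 to 8.10 and 8.87 in MMACSF. The log2 changes were −1.48 and −1.71 in COLO858 (adjusted p = 0.00334 and 0.00242) and −1.90 and −2.17 in MMACSF (adjusted p = 0.00181 and 0.000839).

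Among the enzymes that turn lanosterol into cholesterol, EBP and DHCR7 fell in all 4 comparisons with DMSO. EBP was at 69.8 and 63.9 FPKM under DMSO in COLO858, 24.2 and 25.9 at 24 h, and 23.2 and 25.6 at 48 h, log2 changes of −1.38 and −1.42 (adjusted p = 0.00286 and 0.0028). Its log2 changes in MMACSF were −1.46 and −1.72 (adjusted p = 0.00567 and 0.00279). For DHCR7 (chr11:71139239-71163914, GRCh37), COLO858 had 23.9 and 20.2 FPKM under DMSO, 6.75 and 5.53 at 24 h, and 3.74 and 3.09 at 48 h. It fell there by 1.69 (SE 0.18, adjusted p = 0.00358) and by 2.38 (adjusted p = 0.00153), and the mean at 48 h was 6.44-fold lower. MMACSF had 72.7 and 65.4 FPKM under DMSO, 13.3 and 11.4 at 24 h, and 7.72 and 7.88 at 48 h. Its log2 changes there were −2.40 and −2.99 (SE 0.13, adjusted p = 0.00112 and 0.000418), with an 8.85-fold lower mean at 48 h.

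NSDHL, which removes methyl groups from the sterol ring, fell at 48 h in both lines, by 0.91 in COLO858 (adjusted p = 0.0078) and by 1.07 in MMACSF (adjusted p = 0.00658), and at 24 h had changes of −0.59 and −0.86 that did not pass. The cyclase LSS, which makes lanosterol, fell in MMACSF at 24 h by 1.01 (adjusted p = 0.00724), and its changes of −0.77 in MMACSF at 48 h and −0.42 and −1.0 in COLO858 did not pass. The lanosterol demethylase CYP51A1 did not pass in any comparison, with changes between −1.39 and −0.83; it shares 25687 bases with AKAP9 on the other strand. The sterol reductase HSD17B7, whose reads may be shared with near-identical pseudogenes, was at 2.59 to 5.55 FPKM over all libraries and had changes between −0.65 and 0.18 that did not pass.

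TM7SF2, a sterol C14-reductase (chr11:64879317-64883856, GRCh37), differed between the lines. In MMACSF it was at 9.15 and 9.00 FPKM under DMSO, 3.65 and 3.82 at 24 h, and 3.68 and 3.11 at 48 h, and it fell by 1.09 and by 1.20 (adjusted p = 0.00815 and 0.00516). In COLO858 it was at 14.2 and 11.4 FPKM under DMSO, 33.3 and 25.1 at 24 h, and 24.5 and 18.7 at 48 h. The treated plates were above the DMSO plates there, but the changes of 1.13 and 0.71 did not pass (adjusted p = 0.0212 and 0.0739). COLO858 and MMACSF differed in this response by 2.22 at 24 h (SE 0.26, adjusted p = 0.00186) and 1.91 at 48 h (adjusted p = 0.00192).

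Of the 6 genes of SREBP control and sterol transport, INSIG1 (chr7:155089486-155101945, GRCh37) fell in every comparison with DMSO. In COLO858 it was at 14 and 18.9 FPKM under DMSO, 3.94 and 4.65 at 24 h, and 2.76 and 3.97 at 48 h, and it fell by 1.71 and by 2.00 (SE 0.23, adjusted p = 0.00655 and 0.00466). The levels in MMACSF were 30.0 and 38.3 FPKM, then 10.0 and 11.7, and then 7.55 and 10.1, with falls by 1.56 and by 1.84 (adjusted p = 0.00785 and 0.00418). COLO858 minus MMACSF, the change differed by −0.15 at 24 h (95% interval from −0.87 to 0.57) and −0.16 at 48 h (from −0.88 to 0.56). Its paralog INSIG2, with the same role but a different control, was at 7.64 and 12.4 FPKM under DMSO, 11.8 and 15.4 at 24 h, and 9.56 and 14.3 at 48 h in COLO858. Its groups overlapped there, and its changes, 0.43 and 0.24 in COLO858 and −0.06 and −0.43 in MMACSF, did not pass.

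SREBF2 was at 157 and 138 FPKM under DMSO, 103.6 and 97.1 at 24 h, and 71.3 and 60.3 at 48 h in COLO858, and at 90.8 and 86.1, then 61.9 and 53.1, and then 48.0 and 49.0 in MMACSF. It fell at 48 h in both lines, by 1.15 (adjusted p = 0.00607) and by 0.85 (adjusted p = 0.0083), and its changes at 24 h, −0.55 and −0.62, did not pass. SREBF1, which encodes the factor that favors fatty acid genes and is itself an LXR target, was at 49.1 and 37.1 FPKM under DMSO and 16.7 and 12.8 at 48 h in COLO858, a change of −1.49 that did not pass (adjusted p = 0.0165). The values of MMACSF were 27.3 and 22.6 and then 23.7 and 19.5, groups that overlapped, with a change of −0.20. The difference of the 48 h changes was −1.28 and did not pass either (adjusted p = 0.054). The escort SCAP had changes between −0.39 and 0.29 and the sterol carrier STARD4 between −1.24 and −0.83, and neither gene passed in any comparison.

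The 7 fatty acid genes had median changes of −0.47 and −1.12 in COLO858 and of −0.65 and −0.89 in MMACSF. Their summed FPKM in COLO858 was 544 and 569.8 under DMSO, 287.1 and 296.3 at 24 h, and 176.3 and 174.6 at 48 h. The MMACSF sums were 524.7 and 577.4, then 278.7 and 294.9, and then 229.3 and 245.8. Taken one by one, 1 and then 2 of the 7 fell in COLO858, where 5.71% and 4.73% of all genes fell. In MMACSF none and then 3 of the 7 fell, where 3.6% and 5.41% of all genes did. At 24 h in MMACSF, 6 of the 7 had an unadjusted limma p under 0.05, as did 36% of all genes. SCD alone made up a mean of 253 FPKM of the DMSO sum in COLO858 and 309 in MMACSF.

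SCD, the desaturase that makes oleate from stearate (chr10:102106990-102124583, GRCh37), was at 229.6 and 276.6 FPKM under DMSO in COLO858, 100.6 and 119 at 24 h, and 27.2 and 33.1 at 48 h. It fell there by 1.20 at 24 h (SE 0.18, adjusted p = 0.00891) and by 3.03 at 48 h (adjusted p = 0.00089), when its mean was 8.40-fold lower. Of the 34 genes, it alone also changed between 24 and 48 h in COLO858. It fell by a further 1.83 (adjusted p = 0.00852), where 1.38% of all genes passed. This call rested on all 6 libraries, and without any 1 of them fewer of all genes passed too. Over the alternative settings the log2 change lay between −1.97 and −1.70. MMACSF had 277.1 and 341.3 FPKM under DMSO, 140.1 and 166.4 at 24 h, and 104.8 and 126.4 at 48 h, and SCD fell at 48 h by 1.41 (adjusted p = 0.00548), a 2.67-fold lower mean. The fall at 48 h was larger in COLO858, by 1.62 on the log2 scale (SE 0.25, adjusted p = 0.00361). Between 24 and 48 h none of the 32 genes passed in MMACSF with limma, where 0.222% of all genes did, and 2 of them had an unadjusted p under 0.05, as did 6.98% of all genes.

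**Figure D3:**
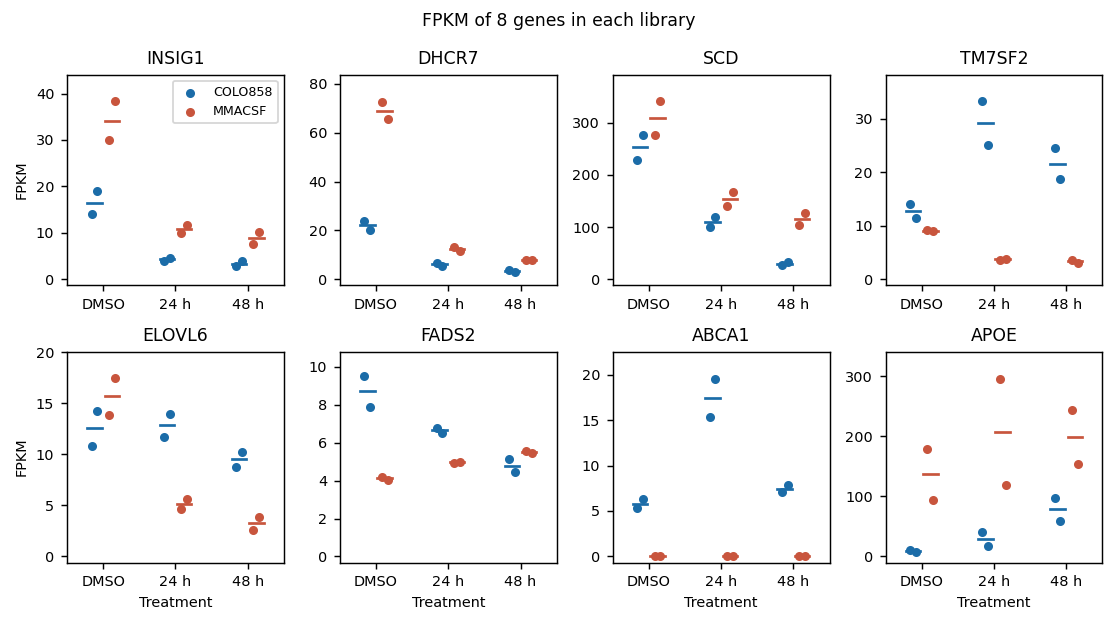
FPKM (y axis, linear) of 8 genes in each library under DMSO and after 24 and 48 h in vemurafenib (x axis); points are libraries, lines are means of 2, COLO858 is blue and MMACSF is red. SCD in COLO858 lies at 27.2 and 33.1 FPKM at 48 h, ELOVL6 is lower than DMSO in the treated MMACSF plates, ABCA1 is highest at 24 h in COLO858, and the 2 APOE plates of a group lie far apart.

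ELOVL6, which lengthens palmitate to stearate (chr4:110967002-111120355, GRCh37), had the opposite difference between the lines. In MMACSF it was at 13.8 and 17.5 FPKM under DMSO, 4.68 and 5.62 at 24 h, and 2.63 and 3.88 at 48 h. It fell there by 1.97 at 48 h (SE 0.21, adjusted p = 0.00413), and its 24 h change of −1.43 did not pass (adjusted p = 0.0116). COLO858 had 10.8 and 14.2 FPKM, then 11.7 and 14, and then 8.79 and 10.2, with changes of 0.04 and −0.36 that did not pass. The difference at 48 h was 1.62 (SE 0.29, adjusted p = 0.00758).

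Of the enzymes ACLY, ACACA, and FASN, 1 passed the test in each line, and FASN in neither. ACLY, which supplies cytosolic acetyl-CoA, fell in MMACSF at 48 h by 0.73 (adjusted p = 0.00907), from 110.1 and 110.0 FPKM to 69.1 and 62.6. In COLO858 it was at 125.9 and 121.3 FPKM under DMSO and 81.0 and 75.5 at 48 h, a change of −0.65 that did not pass. ACACA, the carboxylase that makes malonyl-CoA, fell in COLO858 at 48 h by 1.12 (adjusted p = 0.00824), from 13.7 and 16.3 FPKM to 6.17 and 6.49, and its other changes were between −0.89 and −0.42. FASN, the synthase that builds palmitate, had changes of −1.39 and −1.89 in COLO858 and of −1.61 and −1.77 in MMACSF, but adjusted p-values of 0.0187 to 0.0437. Its plates within a group lay far apart, at 100.6 and 66.5 FPKM under DMSO and 25.5 and 17.8 at 48 h in COLO858, although the groups did not overlap. Replicate 1 was the higher plate in every group of both lines. With the replicate number in the fit, where 26.1 to 45% of all genes passed in a single comparison with DMSO, FASN passed in at least 1.

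FADS1 and FADS2, the desaturases of polyunsaturated fatty acids, share 29692 bases on opposite strands by their GENCODE gene spans. Neither the annotation nor the strand setting of the counting is stated, so their reads may not be fully told apart. By the same spans, FADS2 also shares 4259 bases with FEN1 on the same strand, where a strand setting would not part the reads. FADS2 was at 9.55 and 7.90 FPKM under DMSO and 5.14 and 4.45 at 48 h in COLO858, and at 4.17 and 4.05 and then 5.56 and 5.47 in MMACSF. Neither change, −0.74 and 0.35, passed alone, and their difference of −1.09 did (SE 0.17, adjusted p = 0.00361). FADS1 had changes of −0.96 and −1.25 in COLO858, the latter with an adjusted p of 0.0102, and of −0.50 and −0.58 in MMACSF.

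**Figure D4:**
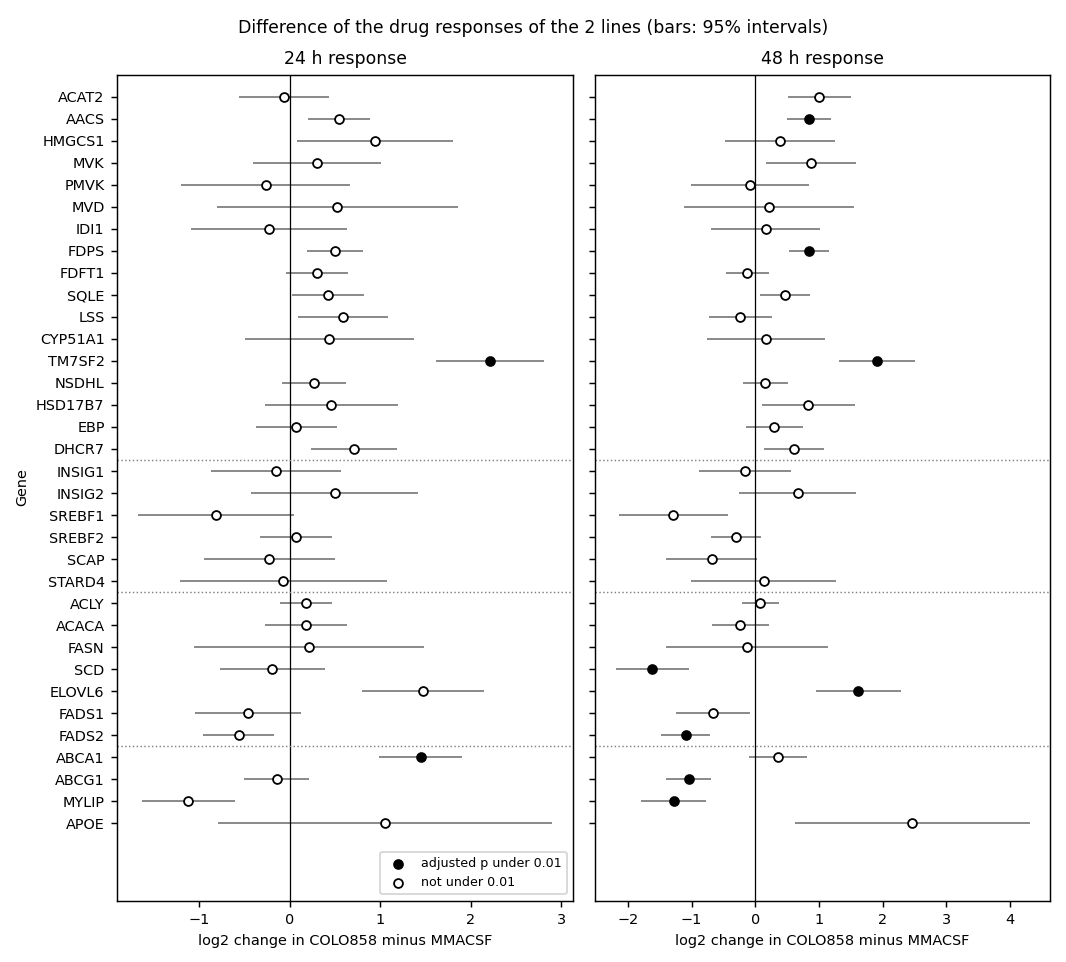
Log2 change in COLO858 minus that in MMACSF (x axis) for each of the 34 genes (y axis) at 24 h (left) and 48 h (right), with 95% intervals; filled points have an adjusted p under 0.01 and dotted lines part the roles. The filled points are TM7SF2 and ABCA1 at 24 h, and AACS, FDPS, TM7SF2, SCD, ELOVL6, FADS2, ABCG1, and MYLIP at 48 h.

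Of the 4 genes of efflux and the LXR response, 1 passed the test against DMSO. This was in COLO858 at 24 h, where 9.82% of all genes passed (4.11% higher). None passed in COLO858 at 48 h, where 9.47% of all genes did. Of the 2 measured in MMACSF none passed, against 5.83% of all genes at 24 h and 8.83% at 48 h. The changes of the 4 genes were of mixed sign. ABCA1, the pump that loads cholesterol onto apolipoproteins (chr9:107543287-107690436, GRCh37), was at 5.29 and 6.30 FPKM under DMSO in COLO858, 15.3 and 19.5 at 24 h, and 7.04 and 7.87 at 48 h. It rose at 24 h by 1.43 (SE 0.18, adjusted p = 0.00568), a 3.01-fold higher mean, and its 48 h change of 0.32 did not pass. In MMACSF the gene was at 0 to 0.0670 FPKM. The difference at 24 h, 1.45 (adjusted p = 0.00363), thus sets a change against a gene that was hardly detected. ABCG1, a second sterol pump, was at 1.74 and 1.56 FPKM under DMSO and 0.450 and 0.579 at 48 h in COLO858 (change −0.81, adjusted p = 0.0157) and at 0 to 0.248 in MMACSF, so that its difference at 48 h, −1.05 (adjusted p = 0.00303), has the same limit.

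MYLIP, an LXR target that marks lipoprotein receptors for degradation (chr6:16129317-16148479, GRCh37), was at 11.4 and 15.8 FPKM under DMSO in MMACSF, 23.0 and 27.0 at 24 h, and 24.6 and 26.5 at 48 h. In COLO858 it was at 8.06 and 8.82, then 6.52 and 7.13, and then 6.38 and 5.92. None of the 4 changes passed, with adjusted p-values of 0.0321 and 0.0245 for the changes of 0.85 and 0.88 in MMACSF, but the difference at 48 h did, at −1.28 (SE 0.22, adjusted p = 0.00653). APOE, the apolipoprotein that accepts exported cholesterol (chr19:45409048-45412650, GRCh37), had the highest ratio of means of the 34 genes, 9.11-fold at 48 h in COLO858. It was at 10.5 and 6.65 FPKM under DMSO, 41.1 and 17.7 at 24 h, and 96.9 and 59.7 at 48 h. The treated plates lay above the DMSO plates, with a wide spread within each pair, and the changes of 1.58 and 3.04 did not pass (SE 0.47, adjusted p = 0.0622 and 0.0105). Replicate 1 was the higher plate of every pair. With the replicate number in the fit, where 26.1 to 45% of all genes passed in a single comparison with DMSO, APOE passed in at least 1. In MMACSF it was at 179.6 and 94.2 FPKM under DMSO, and the treated groups, at 119.2 to 295.8, overlapped with it.

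In the test of the difference between the lines, 2 of the 34 genes passed at 24 h, where 3.71% of 13595 genes did, and 8 passed at 48 h, where 7.48% did. For the change from 24 to 48 h, limma called none of the 34, against 2.96% of all genes, and 8 had an unadjusted p under 0.05, as did 17.4% of all genes. Leaving out any 1 of the 12 libraries left no more of these calls at 24 h and fewer at 48 h, and fewer of all genes passed at both times.

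A further 3 lists of pathway genes were followed for comparison. Of 6 other genes of sterol synthesis and SREBP processing, none passed the test in COLO858 at 24 h, where 9.82% of all genes did. At 48 h there, 1 of the 6 (16.7%) passed, against 9.47% of all genes. In MMACSF 1 passed at each time, against 5.83% and 8.83% of all genes. In each case this was the sterol methyl oxidase MSMO1. It was at 25.0 and 37.0 FPKM under DMSO and 6.15 and 8.42 at 48 h in COLO858, and at 28.0 and 38.9, then 6.87 and 9.87, and then 6.63 and 7.43 in MMACSF. MSMO1 fell at 48 h in COLO858 by 1.94 and in MMACSF by 1.88 at 24 h and by 2.09 at 48 h (adjusted p = 0.00843, 0.00724, and 0.00448), and its change at 24 h in COLO858 did not pass.

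Of 19 further genes of fatty acid synthesis and activation, 17 were measured in COLO858 and 16 in MMACSF. In COLO858, 1 passed at 24 h and 1 at 48 h (5.88% each), against 9.82% and 9.47% of all genes. In MMACSF, 6.25% passed at 24 h, against 5.83% of all genes, and 18.8% at 48 h, against 8.83%. SCD5, a second stearoyl desaturase, rose at 48 h in both lines while SCD fell. It went from 5.63 and 6.51 to 12.8 and 14.5 FPKM in COLO858, a rise of 1.06 (adjusted p = 0.008), and from 8.50 and 9.13 to 16.8 and 17.3 in MMACSF, a rise of 0.88 (adjusted p = 0.00905). The lipin LPIN1 rose in COLO858 at 24 h by 1.23 (adjusted p = 0.00693). The acyl-CoA synthetases ACSL3 and ACSL1 fell in MMACSF, ACSL3 by 1.56 and 1.92 (adjusted p = 0.00955 and 0.00448) and ACSL1 at 48 h by 1.02 (adjusted p = 0.00832).

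Of 15 genes of sterol uptake, storage, and efflux, 14 were measured in COLO858 and 13 in MMACSF. None passed in COLO858 at 24 h, against 9.82% of all genes, and 2 (14.3%) passed at 48 h, against 9.47%. In MMACSF 1 (7.69%) passed at 24 h, against 5.83% of all genes, and 2 (15.4%) at 48 h, against 8.83%. In COLO858 at 48 h, the lipoprotein receptor SCARB1 fell by 1.43 (adjusted p = 0.00721) and the apolipoprotein APOC1 by 2.42 (adjusted p = 0.00127), the latter from 76.7 and 69.3 FPKM to 11.2 and 14.6. In MMACSF, the lipoprotein receptor VLDLR rose by 1.57 and by 1.76 (adjusted p = 0.0027 and 0.00157), from 8.73 and 10.1 FPKM to 30.5 and 29.5 at 24 h and 32.2 and 36.5 at 48 h. LRP1, another receptor of that family, rose there at 48 h by 1.63, with an adjusted p that rounds to the threshold of 0.01. APOC1 was at 0 to 0.332 FPKM in MMACSF.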

How the data were processed

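Cells were lysed in the plate, and stranded mRNA libraries with ERCC spike-in were sequenced as single reads of 50 bases. The authors aligned reads to hg19 (the same assembly as GRCh37) with TopHat at default settings and derived gene values with Cuffdiff; versions, annotation, strand setting, and library scaling are not given in the sources used here. The deposited values are FPKM, 1 table per line. Read depth is unknown, so the precision of a single library is too.

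All 12 columns were used. Each line was fitted with limma 3.58.1 in R 4.3.3 (3 groups, log2(FPKM + 1), empirical Bayes with trend), with genes whose mean was at least 1 FPKM in any group, Benjamini-Hochberg adjustment, and a threshold of 0.01. The 2 lines were compared through the interaction terms of a model of 6 groups over 12 libraries. All tests were two-sided, the 9 comparisons were not adjusted for each other, and the steps were tested on simulated data. The simulated libraries varied independently, without a shared effect of the replicate number, so they do not test the fit in that respect. Alternatives were another added constant, other minimum levels, rescaling, leaving out small RNA genes, a threshold of 0.05, a replicate block, and leaving out each library.

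The 34 genes and all lists, including those of melanocyte lineage, blood, epithelial, fibroblast, and adipocyte markers, were chosen with earlier results of these data known. All 34 genes are named, and of the other lists those past the threshold in a comparison with DMSO or between lines; 1 listed gene is not reported here. Gene positions and overlaps are from GENCODE gene spans for GRCh37. The overlaps may differ in the annotation behind the FPKM, which is not given. Of the 34 genes, 7 (ACAT2, CYP51A1, FADS2, FADS1, MVK, SREBF1, and ACACA) overlap a protein-coding gene on the other strand. On the same strand, FADS2 overlaps FEN1 by 4259 bases and TM7SF2 overlaps VPS51 by 18 bases. EBP (6911 bases) and CYP51A1 (up to 22645 bases) overlap protein-coding genes there that have only an identifier. Promoters are from RefSeq.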

Additional observations from a re-analysis of the deposited data

Results flagged for a closer look

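The results here are the genes whose drug response differed between the lines, tested as an interaction in limma over the 12 libraries with adjusted p under 0.01. Each value is the log2 change in COLO858 minus that in MMACSF. At 24 h the difference was 2.22 for TM7SF2 and 1.45 for ABCA1. At 48 h it was positive for AACS (0.84), FDPS (0.85), TM7SF2 (1.91), and ELOVL6 (1.62), and negative for SCD (−1.62), FADS2 (−1.09), ABCG1 (−1.05), and MYLIP (−1.28). Of the further pathway genes, C14orf1, the sterol scaffold also named ERG28, had a difference of 1.11 at 48 h (adjusted p = 0.00966), and APOC1 one of −2.22 (adjusted p = 0.000636). ABCA1, ABCG1, and APOC1 were under 1 FPKM in every MMACSF library, so for these 3 genes the difference is mainly the change in COLO858. Groups of 2 libraries were not searched for outlying values, and the effect of leaving out each library is given with the processing.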

How the results depend on the processing

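None of the 52 called changes of the 34 genes reversed its sign under any alternative that could be fitted, but most alternatives could not have reversed one. The block, the threshold, the minimum level, and leaving out small RNA genes do not alter a log2 change. Where 2 groups of libraries did not overlap, leaving out 1 library could not reverse their order. The kept signs are therefore no test of the calls. The number of the 34 genes called depended on the settings, and is given here with the share of all genes tested that was called. With the threshold at 0.05 it was 17 (25.8%) at 24 h and 22 (26%) at 48 h in COLO858, 2 (6.37%) for 48 h against 24 h there, 20 (20.3%) in MMACSF at 24 h, and, for the difference between lines, 4 (9.03%) at 24 h and 4 (6.36%) for the change from 24 to 48 h. Without small RNA genes it was 16 (13.9%) in COLO858 at 48 h, 14 (10.1%) in MMACSF at 24 h, and 2 (3.29%) for the difference in the change from 24 to 48 h. With no minimum level it was 0 (0.472%) for COLO858 at 48 h against 24 h and 1 (2.13%) for the difference in that change. For the difference at 24 h, it was 1 (2.47%) with a constant of 0.1 FPKM, 1 (3.21%) with a minimum of 10 FPKM, and 4 (4.5%) after median-ratio rescaling, which gave 3 (3.71%) for the change from 24 to 48 h. Leaving out 1 library gave, in COLO858, 0 to 2 at 24 h, 0 to 2 at 48 h, and 0 to 0 for 48 h against 24 h; in MMACSF, 0 to 2, 1 to 4, and 0 to 0; and for the differences between lines, 0 to 2, 0 to 5, and 0 to 0. The lone library left in a group was assumed to vary like the other groups. The cause was not tested.

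With the replicate number as a block, 25 genes (45% of all genes) were called at 24 h, 26 (43.7%) at 48 h, and 12 (18%) for 48 h against 24 h in COLO858, 23 (26.1%) at 24 h and 22 (30.1%) at 48 h in MMACSF, and 13 (17.6%), 17 (25.3%), and 8 (13%) for the differences at 24 h, at 48 h, and in the change between them. All 52 calls made without the block remained. Of the 17 genes that passed in no comparison with DMSO, 15 passed in at least 1 with the block, all but HSD17B7 and INSIG2. The share of all genes gained in this way was not counted, so this count cannot be set against it. Taken as deviations from the group mean, libraries with the same number had correlations of 0.196 to 0.211 over all genes in COLO858 and 0.0628 to 0.113 in MMACSF, of 0.753 to 0.779 and 0.59 to 0.673 without small RNA genes, and of 0.869 to 0.93 and 0.895 to 0.902 over the lipid genes. There were 2 libraries per group, and no source says what their numbers share, so any pairing rests on the data and not on the design. Read depth is not given with FPKM, so what it limits could not be measured.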
